A study of Homo sapiens with 6 samples.

Results

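MicroRNA host transcripts are the long RNAs that carry a microRNA hairpin in an exon or an intron. They were taken here as every row of the deposited gene table whose symbol begins with MIR and ends with HG, which gave 69 of 60612 rows. The rule uses names only and no measured value. Of the 69 host rows, 24 had a mean of at least 10 counts over all libraries and were tested, 17 had fewer counts and 28 had a count of 0 in every library. The study sequenced poly(A) RNA from SNU-368, a human hepatocellular carcinoma line, in 3 libraries labelled shCtrl and 3 labelled shTFAM. TFAM is the factor that packages and transcribes mitochondrial DNA, and the labels mark the shTFAM libraries as a short-hairpin knockdown of it, with shCtrl as the control hairpin. No age, time, dose or agent beyond the hairpins is given in the labels, and neither the number of hairpin sequences nor whether the libraries came from separate cultures or clones is stated. All p-values below therefore measure only the spread between these libraries, which may be technical.

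A host transcript is made by RNA polymerase II, often spliced and polyadenylated, and the nuclear enzyme DROSHA with its partner DGCR8 cuts the hairpin out of it. XPO5 carries the hairpin to the cytoplasm, DICER1 trims it, and an Argonaute protein holds the mature strand, whose seed (bases 2 to 8) pairs with target messages. A poly(A) library counts the host RNA and not the mature microRNA, so the values here are levels of hosts. In liver tumours, hosts of let-7, miR-34a, miR-122 and miR-210 are among the much studied ones, and miR-210 is known as the microRNA of the hypoxia response.

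MIR210HG had the larger change of the 2 hosts that passed the test below, and miR-210-3p, shown for that reason, is encoded in it at chr11:568112-568133 on the minus strand. Its seed and those below are in capitals, with sequences and positions from RefSeq on GRCh38.p14.
hsa-miR-210-3p: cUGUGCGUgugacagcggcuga

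A shared seed joined more of the hosts than any other. Seed GAGGUAG, that of the let-7 family, lay in 6 of the 69 hosts, of which 5 were tested, and the strands are shown because those hosts were compared with each other. MIRLET7A1HG holds let-7a, let-7d and let-7f, MIRLET7BHG holds let-7a and let-7b, MIR100HG holds let-7a, MIR99AHG holds let-7c, MIR4458HG holds miR-4458 and the low row MIR4500HG holds miR-4500.
hsa-let-7a-5p: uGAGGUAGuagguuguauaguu
hsa-let-7b-5p: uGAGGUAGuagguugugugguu
hsa-let-7c-5p: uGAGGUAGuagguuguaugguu
hsa-let-7d-5p: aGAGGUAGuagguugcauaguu
hsa-let-7f-5p: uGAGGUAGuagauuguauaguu
hsa-miR-4458: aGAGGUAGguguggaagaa
hsa-miR-4500: uGAGGUAGuaguuucuu

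MIR100HG and MIR99AHG also share 2 further seeds, ACCCGUA of miR-100 and miR-99a and CCCUGAG of miR-125b, so that the 2 long hosts carry the same 3 kinds of microRNA on chromosomes 11 and 21. In MIR100HG the miR-100 strand lies at chr11:122152275-122152296 and in MIR99AHG the miR-99a strand lies at chr21:16539101-16539122, with let-7c at chr21:16539838-16539859.
hsa-miR-100-5p: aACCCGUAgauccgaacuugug
hsa-miR-99a-5p: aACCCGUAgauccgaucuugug
hsa-miR-125b-5p: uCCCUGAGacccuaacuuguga

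Library totals ran from 43286024 to 50910536 counts in shCtrl and from 46263488 to 61058282 in shTFAM. Values below are CPM, counts scaled to a library size that edgeR's TMM factors adjust, and FPKM, which are also scaled to length, are used to compare levels between genes. TFAM was at 81.2, 75.6 and 89.4 CPM in shCtrl and at 63.7, 64.8 and 56.3 CPM in shTFAM, a log2 fold change of -0.41 (SE 0.109, edgeR adjusted p = 0.0470). The libraries labelled shTFAM were thus all lower, by 1.33-fold, but the call ended when any 1 library was left out (edgeR adjusted p from 0.0824 to 0.117). Over all 19051 tested rows, 1742 were higher and 945 lower in shTFAM at an edgeR adjusted p under 0.05. The split depends on the scaling: with library totals it was 1388 to 1234, and with totals counted outside mitochondrial DNA, it was 1247 to 1695 and the median over all rows went from -0.02 to -0.15. The share of counts from mitochondrial DNA was 10.1 to 14.2% in shCtrl and 7.91 to 10.7% in shTFAM. Of 15 hepatocyte-lineage markers 9, ALB and AFP among them, were at 0 in every library, and the list's sum, carried by the keratins KRT8 and KRT18, was 1112 to 1342 CPM in shCtrl and 1512 to 1631 CPM in shTFAM. Sums of 8 fibroblast and stellate markers were 247 to 379 against 383 to 454 CPM with COL1A2 and LRAT at 0, those of 8 leukocyte markers 38.1 to 43.5 against 74.5 to 117 CPM with PTPRC, CD3E and LYZ at 0, those of 6 endothelial markers 2.95 to 4.17 against 3.54 to 5.35 CPM, and those of 5 erythroid markers 0.618 to 1.27 against 0.445 to 1.24 CPM. The part of these shifts in the results below was not tested. In bulk RNA, fewer cells that make a transcript and less of it per cell cannot be told apart.

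Of the 24 tested hosts, 2 rose in shTFAM at an edgeR adjusted p under 0.05, MIR210HG and MIR99AHG, and none fell. That is 8.33% of them, beside 14.1% of all tested rows (9.14% higher and 4.96% lower), and beside 10.3% of rows within the hosts' range of mean CPM, so hosts were not called more often than other rows. The median log2 fold change was 0.18 over the 24 hosts and -0.02 over all tested rows. At an unadjusted p under 0.05 there were 6 hosts, 4 higher and 2 lower, against 30.9% of all rows. DESeq2 called 4 hosts, adding MIR4435-2HG as higher and MIR4458HG as lower, and called 21.8% of all rows. The 3 values of each group did not overlap for 7 hosts (29.2%), against 38.9% of all rows. Of these, MIR210HG, MIR99AHG, MIR4435-2HG and MIR924HG were higher in all 3 shTFAM libraries, and MIR4458HG, MIR1915HG and MIRLET7A1HG were lower in all 3.

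**Figure D1:**
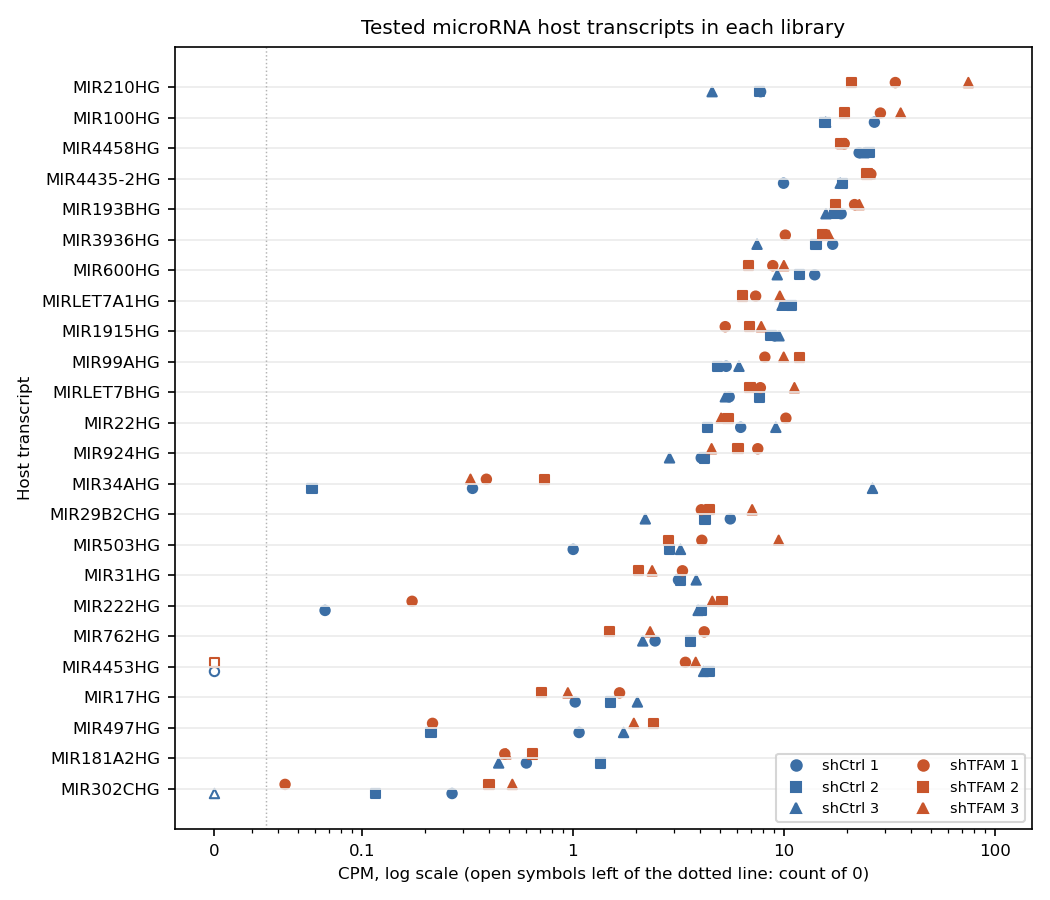
CPM of the 24 tested host transcripts (log axis) in each of 6 libraries, shCtrl in blue and shTFAM in orange, ordered by mean CPM; open symbols mark a count of 0. MIR210HG separates the groups most widely, and single libraries of MIR34AHG, MIR222HG, MIR4453HG and MIR497HG lie far from others of their own group.

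**Figure D2:**
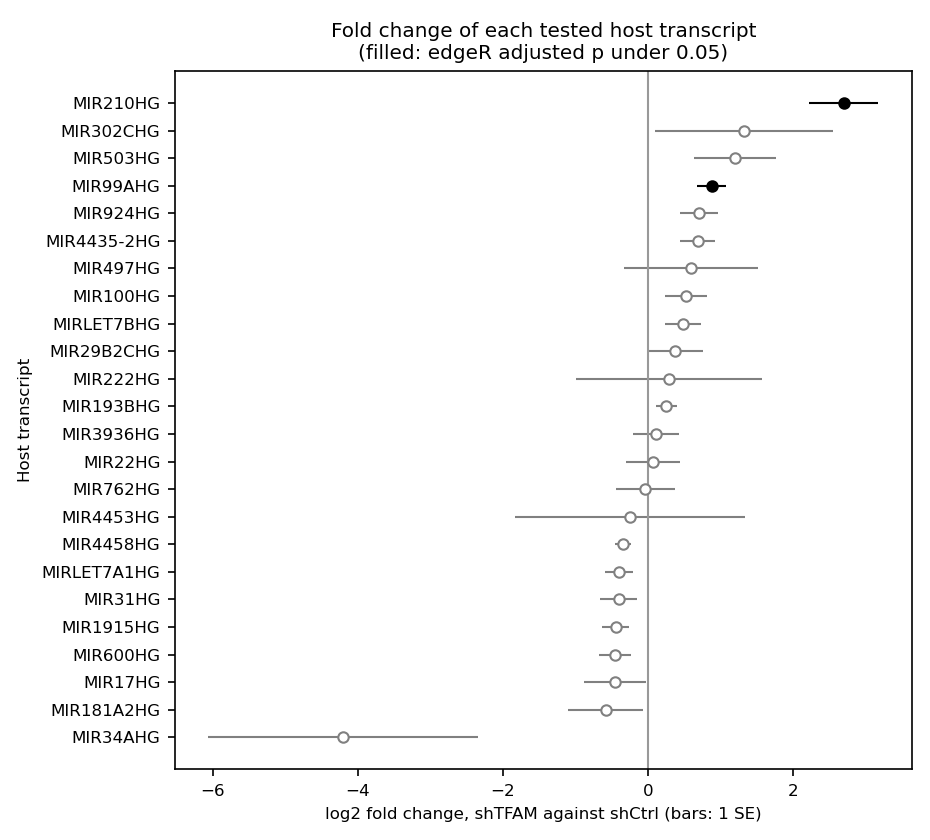
Log2 fold change of each tested host, shTFAM against shCtrl, with bars of 1 SE; filled points passed an edgeR adjusted p under 0.05. MIR210HG at 2.70 and MIR99AHG at 0.88 are the filled points, and the widest bars belong to MIR34AHG, MIR4453HG and MIR222HG.

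MIR210HG, the host of miR-210 (ENSG00000247095, chr11:565660-568457 on the minus strand of hg38), had the highest mean FPKM of all 69 hosts. Its counts were 348, 396 and 226 in shCtrl and 1562, 938 and 4352 in shTFAM. In CPM these were 7.76, 7.65 and 4.57 against 33.8, 20.9 and 74.9. Every shTFAM library stood above every shCtrl library, with shTFAM 3 the highest and shCtrl 3 the lowest. Group means were 6.66 ± 1.81 CPM (SD, n = 3) in shCtrl and 43.2 ± 28.2 CPM (SD, n = 3) in shTFAM. The rise was 6.49-fold, a log2 fold change of 2.70 (SE 0.482, edgeR adjusted p = 0.0140). It passed in each of 18 alternative analyses, with adjusted p from 4.41e-09 in DESeq2 to 0.0472 in edgeR without shCtrl 2. With shCtrl 3 and shTFAM 3 both left out the log2 fold change was 1.83.

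The hairpin row MIR210, at chr11:568089-568198 inside an intron of the host, was read separately in the table. It had a count of 0 in each shCtrl library and of 18, 35 and 43 in shTFAM. Unspliced host RNA and the uncut hairpin cannot be told apart in this row. If each count is 1 separate read, a count of 0 allows up to 3 counts per library. Under that condition the shTFAM mean of 0.636 ± 0.215 CPM (SD, n = 3) was at least 10.3-fold higher. That ratio was not tested. The test of the counts as they stand gave an edgeR adjusted p = 0.0121. With 0 counts in shCtrl, the row met the count filter through its shTFAM counts alone. Its passing, here and in the alternatives, is therefore no evidence beyond the counts or separate from the host row. MIR210 passed in 16 of 17 alternatives that kept the row. It was the only one of 35 tested microRNA gene rows to pass.

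**Figure D3:**
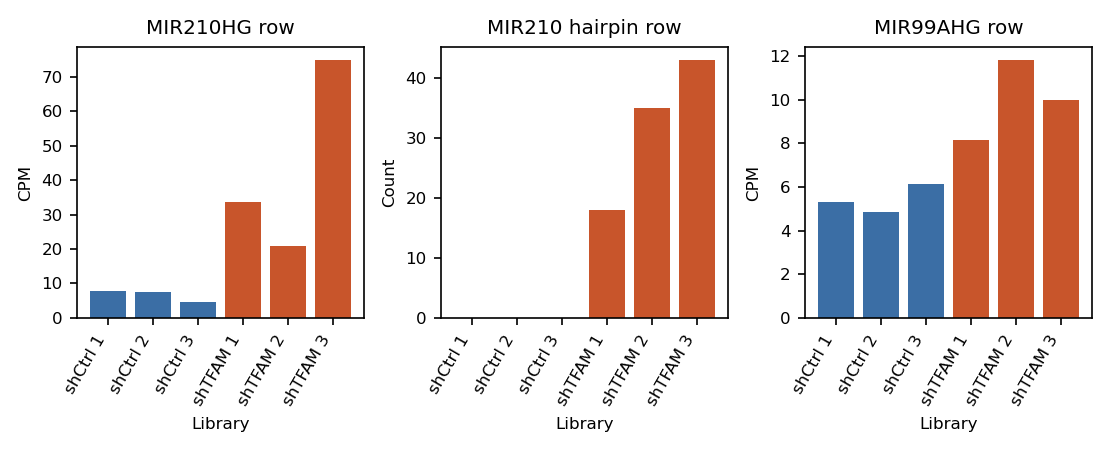
Bars from 0 give, for each library, the CPM of MIR210HG, the count of the MIR210 hairpin row and the CPM of MIR99AHG, with shCtrl in blue and shTFAM in orange. In all 3 panels every shTFAM bar is above every shCtrl bar, and the hairpin row is at 0 in the 3 shCtrl libraries.

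Because MIR210HG changed the most among the hosts whose libraries agreed, the RefSeq window from 250 bases before to 50 after its start (chr11:568408-568707, minus strand, GRCh38.p14) is shown with matches to ACGTG and GCGTG, the core letters bound by hypoxia-inducible factors, in capitals. Both strands were searched. The motifs share the letters CGTG and cannot start at the same base, but a match on one strand can overlap a match on the other. This window held 2 matches, ACGTG at -170 and GCGTG at -9 from the start.
MIR210HG promoter window: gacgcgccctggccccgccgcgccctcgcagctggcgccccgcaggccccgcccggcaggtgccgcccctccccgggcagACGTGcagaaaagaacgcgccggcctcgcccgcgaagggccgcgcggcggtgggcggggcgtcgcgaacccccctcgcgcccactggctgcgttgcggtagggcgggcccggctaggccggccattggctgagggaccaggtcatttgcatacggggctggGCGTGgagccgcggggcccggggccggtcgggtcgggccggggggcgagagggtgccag
Of 35116 such windows in RefSeq, 48.4% held at least 1 match, and of the 34 windows of 23 tested hosts 11 did (32.4%). A match is a description of the letters and not a binding site.

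The hypoxia-inducible factors that are known to act on miR-210 were measured in the same libraries. HIF1A, the oxygen-regulated subunit, was at 176 ± 2.15 CPM in shCtrl and 211 ± 5.33 CPM in shTFAM (SD, n = 3 each; log2 fold change 0.26, edgeR adjusted p = 0.0735). EPAS1, its close relative, was at 126 ± 35.1 and 216 ± 35.4 CPM (0.78, edgeR adjusted p = 0.0611). ARNT, the partner subunit, was at 96.8 ± 12.4 and 120 ± 7.16 CPM (0.31, edgeR adjusted p = 0.126). None of the 3 passed in this edgeR fit of all 6 libraries. For each of them the groups did not overlap, which held for 38.9% of all tested rows (20.5% with shTFAM higher). Their part in the rise of MIR210HG was not tested.

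The share of MIR210HG in all host reads differed between the groups. Host rows summed to 174, 179 and 189 CPM in shCtrl and to 217, 189 and 287 CPM in shTFAM. MIR210HG made up 4.45, 4.28 and 2.42% of that sum in shCtrl and 15.5, 11.1 and 26.1% in shTFAM. Without it the sums were 166, 171 and 185 against 184, 168 and 212 CPM, and the groups overlapped.

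MIR99AHG (ENSG00000215386, chr21:15928296-16645065 on the plus strand), the host of miR-99a, let-7c and miR-125b, was the other host that rose. It is a long row with a low mean FPKM, 0.106 in shCtrl and 0.183 in shTFAM. Counts were 239, 250 and 303 in shCtrl and 376, 531 and 580 in shTFAM, or 5.33, 4.83 and 6.13 against 8.13, 11.8 and 9.98 CPM. The groups did not overlap, with shTFAM 2 the highest. Means were 5.43 ± 0.654 and 9.97 ± 1.84 CPM (SD, n = 3 each), 1.84-fold apart, with a log2 fold change of 0.88 (SE 0.200, edgeR adjusted p = 0.0303). The call ended without shCtrl 1 (edgeR adjusted p = 0.0908), shCtrl 2 (0.101), shTFAM 2 (0.0912) or shTFAM 3 (0.0774), and in limma on log2(FPKM + 1), where the adjusted p was 0.179. The fold change stayed positive in all 17 alternatives that kept the row.

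The other 4 tested hosts of the let-7 seed went in different directions, and none passed. MIR100HG, which carries the same 3 kinds of microRNA as MIR99AHG, was at 26.9, 15.7 and 15.8 CPM in shCtrl and at 28.7, 19.4 and 35.8 CPM in shTFAM. The groups overlapped (log2 fold change 0.53, SE 0.290, edgeR adjusted p = 0.267). MIRLET7BHG, on chromosome 22, was at 6.16 ± 1.33 and 8.62 ± 2.29 CPM (SD, n = 3 each; 0.49, edgeR adjusted p = 0.239). PRR34-AS1 overlaps MIRLET7BHG on the same strand with 291 to 413 counts, and reads of the pair could be split between them in counting. Whether MIR99AHG differed from the other let-7 hosts in its response was not tested.

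MIRLET7A1HG (ENSG00000269929, chr9:94166258-94200902), the host of the let-7a, let-7f and let-7d cluster, was at 10.1, 10.9 and 9.81 CPM in shCtrl and at 7.35, 6.39 and 9.57 CPM in shTFAM. All 3 shTFAM values were the lower ones, though shTFAM 3 lay close to shCtrl 3. The log2 fold change was -0.40 (SE 0.190) with an edgeR adjusted p of 0.204.

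MIR4458HG (ENSG00000247516, chr5:8450701-8486930), whose miR-4458 has the let-7 seed, was at 22.7, 25.5 and 24.0 CPM in shCtrl and at 19.3, 18.6 and 18.8 CPM in shTFAM. The groups did not overlap and each was tight, at 24.1 ± 1.36 and 18.9 ± 0.363 CPM (SD, n = 3 each). The log2 fold change of -0.35 (SE 0.114) had an adjusted p of 0.0858 in edgeR, 0.0334 in DESeq2 and 0.0359 in edgeR with totals counted outside mitochondrial DNA. By its FPKM, 2.90 ± 0.135 in shCtrl and 2.14 ± 0.0880 in shTFAM, it was among the 3 hosts with the highest mean FPKM. MIR4500HG, the low host of this seed, had 4, 0 and 2 counts in shCtrl and 0 in each shTFAM library.

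**Figure D4:**
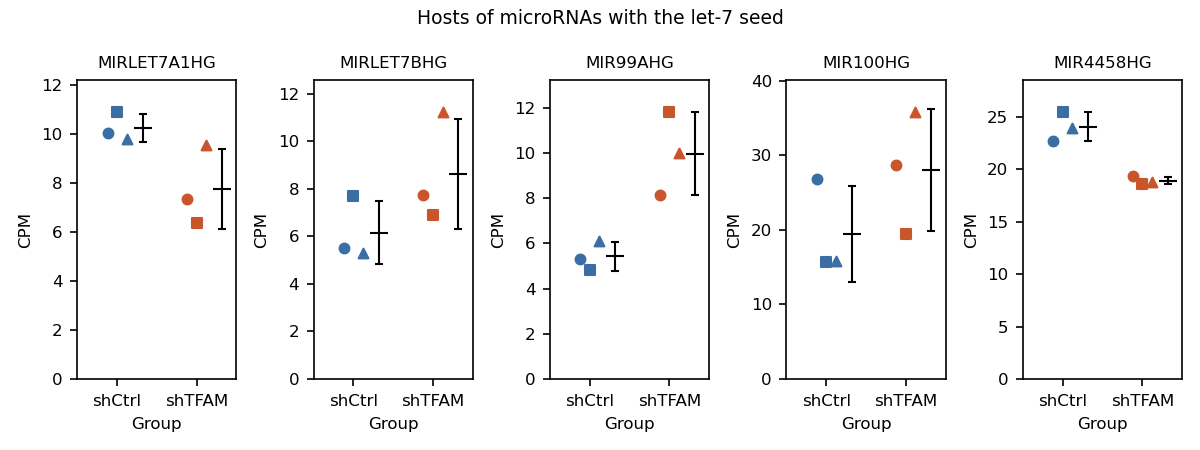
CPM of the 5 tested hosts of microRNAs with the let-7 seed, by group; symbols are libraries 1 to 3 of each group (circle, square, triangle) and the black bar is the mean ± SD. MIR99AHG is higher and MIR4458HG and MIRLET7A1HG are lower in all 3 shTFAM libraries, while the groups overlap for MIR100HG and MIRLET7BHG.

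Of the hosts with the most FPKM, 5 more are given in full here. MIR193BHG (ENSG00000262454, chr16:14301389-14331067), which holds miR-193b and miR-365a, came next to MIR210HG by mean FPKM. It was at 18.7, 17.5 and 15.8 CPM in shCtrl and at 21.6, 17.5 and 22.8 CPM in shTFAM, and the groups overlapped (log2 fold change 0.25, SE 0.149, edgeR adjusted p = 0.296). MIR22HG (ENSG00000186594, chr17:1711493-1716251), the spliced host of miR-22, was at 6.24, 4.35 and 9.16 CPM against 10.2, 5.43 and 5.04 CPM. Its libraries ranged as widely within each group as between them (0.07, SE 0.368, edgeR adjusted p = 0.927), and the sign turned in several alternatives. The MIR22 hairpin row, in an exon of it, had 1, 15 and 1 counts in shCtrl and 1, 8 and 35 in shTFAM.

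MIR1915HG (ENSG00000204682, chr10:21492658-21497260), host of miR-1915, was at 9.01, 8.70 and 9.48 CPM in shCtrl and at 5.27, 6.85 and 7.81 CPM in shTFAM. All shTFAM values were lower (log2 fold change -0.45, SE 0.190, edgeR adjusted p = 0.160), which did not pass in any of 18 alternatives. MIR600HG (ENSG00000236901, chr9:123109494-123115477) was at 14.0, 11.8 and 9.30 CPM against 8.86, 6.79 and 9.999 CPM, and its groups overlapped through shCtrl 3 and shTFAM 3 (-0.45, SE 0.219, edgeR adjusted p = 0.210). It lies within STRBP on the same strand, whose own row had 1421 to 2472 counts, and reads of the pair could be split between them in counting. MIR3936HG (ENSG00000233006, chr5:132311285-132369916) was at 17.0, 14.2 and 7.46 CPM against 10.2, 15.2 and 16.3 CPM (0.11, SE 0.323, edgeR adjusted p = 0.857). It runs antisense to SLC22A4, a transporter of the organic cation and carnitine family that fell by 1.37 on the log2 scale (edgeR adjusted p = 0.00405), and no source used here gives the strand setting of the counting.

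Several hosts known from tumour biology were compared by their group means. MIR4435-2HG, a long non-coding RNA raised in many tumours, was at 9.96, 18.9 and 18.5 CPM in shCtrl and at 25.8, 24.8 and 25.6 CPM in shTFAM. The shTFAM libraries were higher and close together, and shCtrl 1 was apart from its group. The log2 fold change of 0.69 (SE 0.242) had an adjusted p of 0.104 in edgeR and 0.0418 in DESeq2, and was 0.44 without shCtrl 1. BCL2L11 lies in MIR4435-2HG on the opposite strand, with 1360, 2107 and 1364 counts in shCtrl and 1042, 1101 and 1126 in shTFAM. The strand setting of the counting is not known. MIR924HG was at 3.71 ± 0.734 and 6.04 ± 1.49 CPM (SD, n = 3 each; 0.70, edgeR adjusted p = 0.119). The processed pseudogene RPL7AP66 lies in it on the same strand with 255 to 1068 counts, so this row is uncertain.

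MIR503HG, which holds miR-503 on chromosome X, had 45, 148 and 160 counts in shCtrl and 189, 128 and 549 in shTFAM. The groups overlapped, with shTFAM 3 far above the rest (log2 fold change 1.21, SE 0.565, edgeR adjusted p = 0.197), and the value was 0.55 without it. MIR17HG, the host of the miR-17-92 cluster and a MYC-responsive RNA, was at 1.52 ± 0.498 and 1.11 ± 0.496 CPM (SD, n = 3 each; -0.46, edgeR adjusted p = 0.518). MIR31HG, near the CDKN2A locus, was at 3.41 ± 0.374 and 2.58 ± 0.653 CPM (-0.41, edgeR adjusted p = 0.324). The interferon gene IFNE lies in it on the same strand with 21 to 68 counts.

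The remaining tested hosts were MIR29B2CHG, MIR181A2HG, MIR302CHG and MIR762HG, and the groups overlapped for each. MIR29B2CHG, the host of miR-29b and miR-29c, was at 4.003 ± 1.70 and 5.20 ± 1.64 CPM (SD, n = 3 each; log2 fold change 0.38, edgeR adjusted p = 0.547). MIR181A2HG was at 0.800 ± 0.485 and 0.534 ± 0.0963 CPM (-0.58, edgeR adjusted p = 0.494), with shCtrl 2 at 70 counts and the other libraries at 22 to 29. MIR302CHG, whose miR-302 cluster marks pluripotent stem cells, had 12, 6 and 0 counts in shCtrl and 2, 18 and 30 in shTFAM (1.33, SE 1.23, edgeR adjusted p = 0.511), and lies antisense in LARP7. MIR762HG was at 2.74 ± 0.776 and 2.67 ± 1.38 CPM (-0.04, edgeR adjusted p = 0.966) and runs antisense to BCL7C.

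Another 4 of the 24 hosts (16.7%) differed at least 10-fold between libraries of the same group, which 3.26% of all tested rows did and 5.01% of rows in the hosts' CPM range. This description was added after the values were seen. MIR34AHG, the host of miR-34a, had 15, 3 and 1301 counts in shCtrl and 18, 33 and 19 in shTFAM. A single library, shCtrl 3, held nearly all counts, and its log2 fold change of -4.21 (SE 1.86, edgeR adjusted p = 0.174) became 1.3 without that library. LNCTAM34A, which overlaps it on the other strand, had 95 to 106 counts in shCtrl and 61 to 84 in shTFAM. The MIR34A hairpin row had 4, 2 and 1 counts in shCtrl and 1, 2 and 1 in shTFAM, so neither row stood out in shCtrl 3.

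MIR222HG, the host of miR-221 and miR-222, had 3, 210 and 194 counts in shCtrl and 8, 229 and 266 in shTFAM. Library 1 of each group was low and the other libraries were alike (log2 fold change 0.29, SE 1.29, edgeR adjusted p = 0.908). In an intron of it, the MIR221 hairpin row had 2, 12 and 5 counts in shCtrl and 4, 6 and 21 in shTFAM. MIR4453HG had 0, 230 and 206 counts in shCtrl and 158, 0 and 222 in shTFAM. A library at 0 beside one of the same group at 100 counts or more was seen in 0.457% of all tested rows. FBXW7, whose row lies 172 bases from MIR4453HG, had a log2 fold change of 0.05 (edgeR adjusted p = 0.912). MIR497HG, the host of miR-497 and miR-195, had 48, 11 and 86 counts in shCtrl and 10, 108 and 113 in shTFAM (0.60, SE 0.927, edgeR adjusted p = 0.713).

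**Figure D5:**
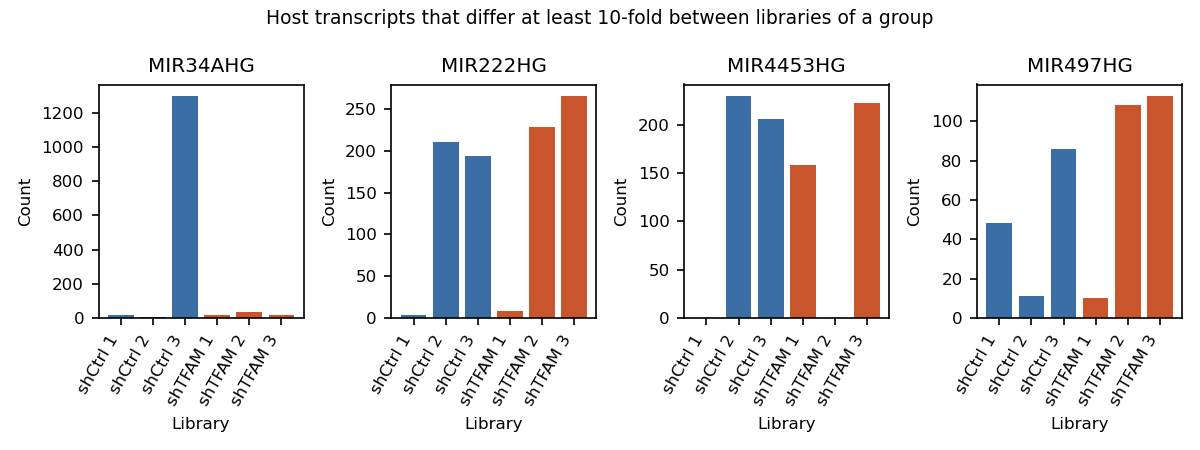
Counts in each library, as bars from 0, for the 4 hosts that differed at least 10-fold between libraries of a group, shCtrl in blue and shTFAM in orange. MIR34AHG is high in shCtrl 3 alone, MIR222HG is low in library 1 of both groups, and MIR4453HG is at 0 in shCtrl 1 and shTFAM 2.

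The 17 low hosts held 312 counts in all, and 15 of them had at least 1 library at 0. Fitted without the count filter, none passed (edgeR adjusted p from 0.343 to 0.995), and 0 had an unadjusted p under 0.05. If each count is 1 separate read, a count of 0 allows up to 3 counts, or 0.0491 to 0.0693 CPM by library. Where a read adds more than 1 count, that floor is too low. MIR181A1HG, one of the hosts of miR-181a and miR-181b, had 7, 10 and 24 counts in shCtrl and 6, 4 and 2 in shTFAM, with sums of 41 and 12, the largest difference in summed counts among the low hosts. MIR137HG, a neuronal host, had 8, 15 and 4 counts against 8, 16 and 6, and these 2 were the low hosts counted in all 6 libraries. MIR1302-2HG had 4, 9 and 0 against 7, 10 and 11 counts.

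MIR155HG, the host of the lymphoid miR-155, had 4, 7 and 0 counts in shCtrl and 8, 7 and 4 in shTFAM. MIR122HG, the host of the hepatocyte microRNA miR-122, had 7 counts in shCtrl 2 and 0 in the other libraries. MIR200CHG, the host of the epithelial miR-200c and miR-141, had 8 counts in shCtrl 3 and 0 elsewhere. MIR194-2HG, the host of miR-192 and miR-194, had 8 counts in library 2 of each group and 0 elsewhere. For these 4 hosts no difference between groups was detected, and the part of depth in that was not tested.

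Counts in MIR378D2HG were 15 in shCtrl 1 and 8 in shTFAM 3, and those in MIR3150BHG were 7 and 8 in the same libraries, with 0 in the others. MIR133A1HG, a muscle host, had 2, 8 and 0 counts against 0, 8 and 0. MIR4432HG had 8 and MIR124-1HG had 5 counts in shCtrl 1 and none in other libraries. A further 5 low hosts stayed under 5 counts in every library.

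In the table, 106 microRNA hairpin rows lay inside 66 of the hosts on the same strand. Of these hairpin rows, 64 had a count of 0 in all libraries and 4 reached 10 counts in some library, namely MIR210, MIR22, MIR221 and MIR367. MIR367, in an intron of MIR302CHG, had 2, 2 and 13 counts in shCtrl and 0, 2 and 0 in shTFAM. Within the 24 tested hosts, 26 hairpins lay in introns, 18 in exons, 1 partly in an exon and 3 outside the host's GENCODE 29 gene model. The rows of MIR4458, MIR4763 and MIR29C had exactly 1 count in each of 6 libraries and that of MIR3936 had 2 in each.

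Genes that make and use microRNAs were listed beside the hosts. Of 46 such genes 44 were tested, 6 fell, 2 rose and 36 did not pass, which is 18.2% called beside 14.1% of all rows. The called share differed with level, at 10.3% for rows within the hosts' range of mean CPM. No share matched for level was taken for this list or those below. The median log2 fold change was -0.12 beside -0.02, and with totals outside mitochondrial DNA 10 fell and 1 rose. DGCR8, the partner of DROSHA, fell from 39.6 ± 1.69 to 27.9 ± 2.58 CPM (SD, n = 3 each; -0.51, edgeR adjusted p = 0.0276). METTL3, which marks primary microRNAs by methylation, fell by 0.56 on the log2 scale (edgeR adjusted p = 0.0159) and TSN, a subunit of a nuclease that removes passenger strands, by 0.95 (edgeR adjusted p = 0.0264). XPO5, ADAR and HSP90AA1 also fell. ADARB1, an adenosine deaminase that edits double-stranded RNA, rose from 34.1 ± 7.06 to 102 ± 23.4 CPM (SD, n = 3 each; 1.58, edgeR adjusted p = 0.00543), and the exonuclease XRN1 rose by 0.42 (edgeR adjusted p = 0.0441). DROSHA (-0.26, edgeR adjusted p = 0.200), DICER1 (0.03, 0.887) and AGO2 (-0.21, 0.127) did not pass. Leaving out 1 library left 1 to 3 of this list lower and 1 higher. DGCR8 passed only without shTFAM 1, TSN only without shTFAM 3, and METTL3 in 4 of 6 such fits, all but those without shCtrl 1 (edgeR adjusted p = 0.0552) and shTFAM 2 (0.0526). XPO5 passed only without shCtrl 1, ADAR only without shTFAM 3 and HSP90AA1 only without shTFAM 2. XRN1 passed in none of the 6 and ADARB1 in each.

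Reported targets of the microRNAs in these hosts were read from the same fit. Of 9 reported targets of miR-210 all were tested, 3 fell, 1 rose and 5 did not pass. That is 44.4% called beside 14.1% of all rows (9.14% higher and 4.96% lower), with a median log2 fold change of -0.21 beside -0.02. ISCU, a scaffold for iron-sulphur clusters, fell from 81.5 ± 6.60 to 52.0 ± 3.82 CPM (SD, n = 3 each; -0.65, edgeR adjusted p = 0.0114). E2F3, a cell-cycle factor, fell by 0.46 (edgeR adjusted p = 0.0224) and the repair gene RAD52 by 0.66 (0.0251) on the log2 scale, while the ephrin EFNA3 rose by 0.90 (0.0240). Without shCtrl 1, shCtrl 2, shTFAM 2 or shTFAM 3 only ISCU of the 4 passed, and RAD52 did not pass without shTFAM 1 either.

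Of 14 reported let-7 targets 12 were tested, 3 fell and 2 rose, which is 41.7% beside 14.1% of all rows, with a median log2 fold change of -0.14 beside -0.02. With no filter beyond 1 count, with totals outside mitochondrial DNA and in both limma fits on log2 FPKM, 3 fell and 0 rose. HMGA2, an architectural chromatin protein, fell from 9.19 ± 0.945 to 1.54 ± 0.241 CPM (SD, n = 3 each; -2.58, edgeR adjusted p = 0.00154). HMGA1 fell by 0.47 (edgeR adjusted p = 0.0182) and the RNA-binding IGF2BP1 by 0.42 (0.0300), and ARID3A rose by 0.93 (0.0362), as did ARID3B. Fits without 1 library left 1 or 2 of the list lower, HMGA2 among them in each, and none higher except without shTFAM 1, where 2 were. Of 7 reported targets of miR-17-92 all were tested and 1 passed, which is 14.3% beside 14.1% of all rows. It was CCN2, a matricellular protein, which rose by 1.62 on the log2 scale (edgeR adjusted p = 0.00688). What part the microRNAs had in these values was not tested.

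Regulators known to act on such hosts were also read. Of 21 regulators 18 were tested, 5 rose and 1 fell, which is 33.3% of those tested beside 14.1% of all rows. The median log2 fold change was 0.26, beside -0.02 over all rows. RUNX1 rose by 1.13 (edgeR adjusted p = 0.00293), the repressor ZEB2 by 1.3 (0.00389), the cytokine TGFB1 by 1.45 (0.00389) and the repressor SNAI1 by 1.23 (0.00966). SMAD3 also rose, and the gene that fell was E2F3, which is counted above among the miR-210 targets too. Fits without 1 library left 4 or 5 of the list higher and 0 or 1 lower. In DESeq2, and with shCtrl 3 and shTFAM 3 both left out, 7 were higher and 1 lower. SMAD3 passed in none of these fits, nor with library totals or totals outside mitochondrial DNA.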

How the data were processed

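RNA was analysed in 6 libraries of SNU-368, 3 shCtrl and 3 shTFAM. Libraries were poly(A)-selected, dUTP-marked and paired, per the labels' protocols. Tools named without roles in the submitters' processing notes are HISAT2 2.0.4, StringTie 1.3.4d, cutadapt 1.9 and Bowtie 0.12.2, beside hg38 and mm8 as builds. Which of them made the counts, with what annotation and strand setting, no source used here says. In 1 table the authors deposited, for 60612 gene rows, whole-number counts and FPKM (scaled to depth and length) per library, per the file headers. Coordinates are human and were read as hg38.

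Rows with a mean of at least 10 counts over the 6 libraries were tested with edgeR 4.0.16 (R 4.3.3), TMM factors of 0.952 to 1.04 and the two-sided quasi-likelihood test, with Benjamini-Hochberg adjustment over 19051 rows. The SE is the absolute log2 fold change divided by the square root of F. The count floor is 3 counts and covers counting error only. It takes each count as 1 separate read, which no source used here states. MIR200CHG and MIR4432HG had 8 counts in 1 library and 0 in the others, so a read may add more than 1 count. Replicates differed by more than sampling noise (lowest chi-square per degree of freedom 34.3). The 18 alternatives, which used DESeq2 1.42.0 and limma 3.58.1 among others, are summarised in the closing section. Hairpin rows inside hosts were matched to RefSeq (100 of 106) for mature sequences, and placed in exons or introns by GENCODE 29. Of the hosts, 38 have the same start and end there.

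The hosts and all gene lists were chosen with earlier results of these data known. Named by rule were TFAM, every tested host (in full where called or among the 8 with the highest mean FPKM, otherwise by group means or counts), low hosts with a library at 5 counts or more, microRNA rows inside hosts, and up to 4 called genes of smallest p per list. Other genes, including XPO5, ADAR, HSP90AA1, XRN1, DROSHA, DICER1, AGO2, HIF1A, EPAS1, ARNT, SMAD3, ARID3B and overlapping or nearest rows, were added after their values were seen.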

Additional observations from a re-analysis of the deposited data

How the results depend on the processing

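Over the 24 tested hosts, 16 kept the sign of their fold change in each of the alternatives that kept their row, 20 were called in none, and 23 of 421 alternative values turned sign. The 2 called hosts became 4 in DESeq2, 1 with a minimum of 0.5 FPKM (which drops MIR99AHG), 1 in limma on log2(FPKM + 1) and on log2(FPKM + 0.1), 1 with shCtrl 3 and shTFAM 3 both left out, and 1 to 2 without 1 library. With totals outside mitochondrial DNA, MIR4458HG passed as well, as lower. All called rows, 2687, became 4156 in DESeq2 and 1163 to 2086 without 1 library (1250 without shCtrl 1, 1163 without shCtrl 2, 1756, 1426 and 1432 without shTFAM 1, 2 and 3). The 8 called biogenesis genes became 5 without both libraries numbered 3 and 2 to 4 without 1 library, and the 12 other microRNA-holding genes 5 to 8. TFAM no longer passed at -0.42 with no filter beyond 1 count, at -0.29 without both libraries 3, and at -0.47 to -0.35 without 1 library. Signs turned for MIR22HG (-0.009 with library totals, -0.0587 with totals outside mitochondrial DNA, -0.0105 and -0.0187 in limma with pseudocounts 1 and 0.1, and -0.34 to 0.38 without 1 library), MIR3936HG (-0.0408 with totals outside mitochondrial DNA, -0.30 without both libraries 3, -0.17 to 0.36 without 1 library), MIR29B2CHG (-0.20 without both libraries 3) and MIR34AHG (1.52 without both libraries 3, -4.79 to 1.3 without 1 library). Without 1 library they also turned for MIR181A2HG (-0.88 to 0.0292), MIR762HG (-0.52 to 0.25), MIR4453HG (-0.83 to 0.33) and MIR222HG (-0.29 to 0.84). For each of these the cause was not tested. Each group had 3 libraries, and the common biological coefficient of variation was 0.308. A count of 0 allows up to 3 counts in a library if each count is 1 separate read. What kept single hosts from passing was not tested.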

Other observations

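Genes that hold microRNAs without being named as hosts were read from the same fit. Of 60 such genes 53 were tested, 10 rose, 2 fell and 41 did not pass, which is 22.6% called beside 14.1% of all rows. The split was 7 higher to 4 lower with library totals and 7 to 5 with totals outside mitochondrial DNA. The median log2 fold change was 0.04 beside -0.02 over all rows. H19, the imprinted RNA that holds miR-675, was at 313, 329 and 227 CPM in shCtrl and at 1724, 1660 and 2500 CPM in shTFAM. All shTFAM libraries were far above the shCtrl ones (2.76, SE 0.218, edgeR adjusted p = 0.00152). GPC1, a cell-surface proteoglycan that holds miR-149, rose from 50.6 ± 5.68 to 109 ± 8.83 CPM (SD, n = 3 each; 1.10, edgeR adjusted p = 0.00330). DNM2, a dynamin with miR-199a on its opposite strand, rose by 0.74 on the log2 scale (edgeR adjusted p = 0.00455), and TMEM245, which holds miR-32, by 0.72 (edgeR adjusted p = 0.00613). H19, GPC1, DNM2 and TMEM245 passed in each of 6 fits without 1 library. In those fits 5 to 7 of the list were higher and 0 or 1 lower: 5 and 0 without shCtrl 1, shCtrl 2 or shTFAM 2, and 6 and 1 without shTFAM 3.

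Of the nearest tested protein-coding genes of the 24 hosts, 4 were called, beside 14.1% of all rows. These genes were chosen by position alone. USP25, a deubiquitinase 48227 bases from MIR99AHG on the same strand, was at 30.0 CPM in shCtrl and 57.9 CPM in shTFAM (log2 fold change 0.95, SE 0.123, edgeR adjusted p = 0.00499), beside 0.88 for the host. UBASH3B, 201991 bases from MIR100HG, was at 9.54 and 26.7 CPM (1.48, edgeR adjusted p = 0.00310), beside 0.53 for the host. RASSF7, 1639 bases from MIR210HG on the opposite strand, was at 10.9 and 24.0 CPM with groups that overlapped (1.14, edgeR adjusted p = 0.0780). SLC22A4, given above, fell, and SEMA5A, 548103 bases from MIR4458HG, rose from 0.116 to 1.37 CPM (edgeR adjusted p = 0.0480).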
